A study of Mus musculus with 21 samples.

Results

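Methylation captured in regions classed as gene body, between 3 and 20 kb downstream of a transcription start, was described in cultured mouse synovial fibroblasts. These were the regions on chromosomes 1 to 19 that the authors' deposited tables class as gene body and place at most 20 kb from the start of the nearest transcript. The 4 tables held 7370 such regions among 49307 in all: 1902 of 13125 at 3 weeks, 1576 of 11975 at 8 weeks, 969 of 7309 at 11 weeks and 2923 of 16898 after TNF. They were assigned to 4905 named genes. The class took in some regions past the end of their transcript, as at Sp7 at 3 weeks, 9750.5 bp from the start of a gene of 9094 bp. Further cases were Zbtb24 after TNF (15499.5 bp, gene of 15178 bp) and Bat1a at 8 and 11 weeks (12185.5 and 12360.5 bp, gene of 11959 bp). The distances were counted from the middle of a region and ran from 3005.5 to 19998.5 bp, since the tables class regions nearer to a start as promoter. A region was 550 bp long at the median of each table.

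Synovial fibroblasts line the joint and take part in its destruction in arthritis. Tg197 mice bear a transgene for human TNF and develop polyarthritis. Cells of Tg197 and of wild-type (WT) mice were taken at 3, 8 and 11 weeks of age, and a further group was WT at 8 weeks with TNF given. There were 7 groups of 3 libraries, all on a CBA x C57BL/6J background and all from cells of passages 4 to 5. In MethylCap-seq (capture of methylated DNA by a methyl-CpG-binding protein, then sequencing), the reads of a region depend on both its methylation and its number of CpG sites. The labels do not say whether replicates were separate mice or cultures, so the p-values rest on a spread between samples that may be technical.

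Gene bodies of mammalian genes are largely methylated, while CpG-dense promoters mostly stay free of methylation. In transcribed genes, the histone mark H3K36me3 laid down behind RNA polymerase recruits the DNA methyltransferase Dnmt3b, and body methylation is usually found in active genes. Gene bodies also hold enhancers and internal starts, where methylation tends to be low in the cells that use them.

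Values are reads divided by 1 size factor per library, called normalized reads here, and libraries are named by their position in the deposited tables. A 3-week library held 2230884 to 2875554 reads within listed regions and an 8-week library 695108 to 1143699. The 11-week libraries held 385155 to 544797 and those compared for TNF 1285306 to 1858694. The first and second TNF-treated libraries held identical values and were counted as 1 sample, which left 2 against 3. All 29 regions listed on the Y chromosome at 3 weeks were lost in Tg197, against 1 of 7 at 8 weeks, and 1 of 10 after TNF. The part of this difference in the autosomal results was not tested. Every listed region had already been selected by the authors for a difference, so each test below is a retest within a list. Cell identity cannot be read from methylation capture as from expression: of the listed marker genes, those of synovial fibroblasts had 4 regions at 3 weeks and at most 1 in each other table, and those of lymphocytes had 0 in every table.

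The direction of change differed between the comparisons. In the authors' deposited tables, 822 of the gene-body regions were gained and 1080 lost in Tg197 at 3 weeks, 393 gained and 1183 lost at 8 weeks, 553 gained and 416 lost at 11 weeks, and 508 gained and 2415 lost after TNF. Retested with limma on log2(value + 1), with an adjusted p under 0.05 over all regions of a table, 741 were higher and 792 lower at 3 weeks. At 8 weeks 133 were higher and 824 lower, at 11 weeks 499 were higher and 253 lower, and after TNF 422 were higher and 2317 lower. As a share of the gene-body regions, those higher made up 39.0% at 3 weeks, 8.44% at 8 weeks, 51.5% at 11 weeks and 14.4% after TNF, beside 40.3%, 17.4%, 49.7% and 29.8% of all regions of the same tables. Those lower made up 41.6%, 52.3%, 26.1% and 79.3%, beside 44.7%, 36.6%, 28.2% and 64.1% of all regions. The shares thus lay near the background at 3 and 11 weeks, and at 8 weeks and after TNF the gene-body regions held fewer gains and more losses than the tables as wholes. That difference was not tested. Neighbouring parts leaned the same way at 8 weeks and after TNF. Promoter flanks 1 to 3 kb from a start were listed as gained in 30.2% and 19.6% of cases. Gene-body regions 20 to 100 kb from a start were gained in 29.9% and 22.0%. The 3 to 20 kb regions stood at 24.9% and 17.4%, and all autosomal regions outside that class at 47.7% and 35.3%. The comparisons at 8 weeks and after TNF share their WT libraries. Both counts fell to 0 at 8 weeks when the first or the third Tg197 library or the first or the second WT library was left out, and at 11 weeks when the first or the third Tg197 library or the second WT library was left out. With p-values adjusted over all windows that the deposited p and q-values imply, 1 region passed at 3 weeks and 0 in the other tables.

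The libraries of the groups did not overlap in 83.4% of the gene-body regions at 3 weeks, 76.6% at 8 weeks, 83.5% at 11 weeks and 95.3% after TNF, beside 86.1%, 69.6%, 83.7% and 95.8% of all regions. The split into higher and lower depended on the scaling. The median log2 value over the autosomal regions was shifted, as Tg197 or TNF-treated minus WT, by -0.26 at 3 weeks, -0.32 at 8 weeks, 0.41 at 11 weeks and -0.94 after TNF. With each library centred on that median, 965 were higher and 130 lower at 3 weeks, 233 and 397 at 8 weeks, 169 and 363 at 11 weeks, and 546 and 175 after TNF, so the larger count changed from lower to higher at 3 weeks and after TNF and from higher to lower at 11 weeks.

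Size also differed. The median log2 fold change of gained regions was 0.96 at 3 weeks, 0.70 at 8 weeks, 1.19 at 11 weeks and 0.66 after TNF. Lost regions had a median of -0.24 at 3 weeks, -1.35 at 8 weeks, -0.70 at 11 weeks and -1.35 after TNF. Over all the gene-body regions the median was -0.10, -1.08, 0.81 and -1.21, beside -0.12, -0.22, 0.76 and -1.08 over all regions of the tables. At 8 weeks and after TNF it was -1.03 and -1.24 in promoter flanks 1 to 3 kb from a start. In gene-body regions 20 to 100 kb from a start it was -1.09 and -1.19. In 41.9% of the gene-body regions at 3 weeks, the deposited p lay more than 10 times below the smallest p that counting error of the recovered reads allows, against 9.07% at 8 weeks, 1.24% at 11 weeks and 7.32% after TNF. Without them, the 3-week retest found 691 higher and 313 lower. For TNF, both identical libraries entered this counting error, unlike in limma, so the 7.32% does not compare directly with the other shares.

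**Figure D1:**
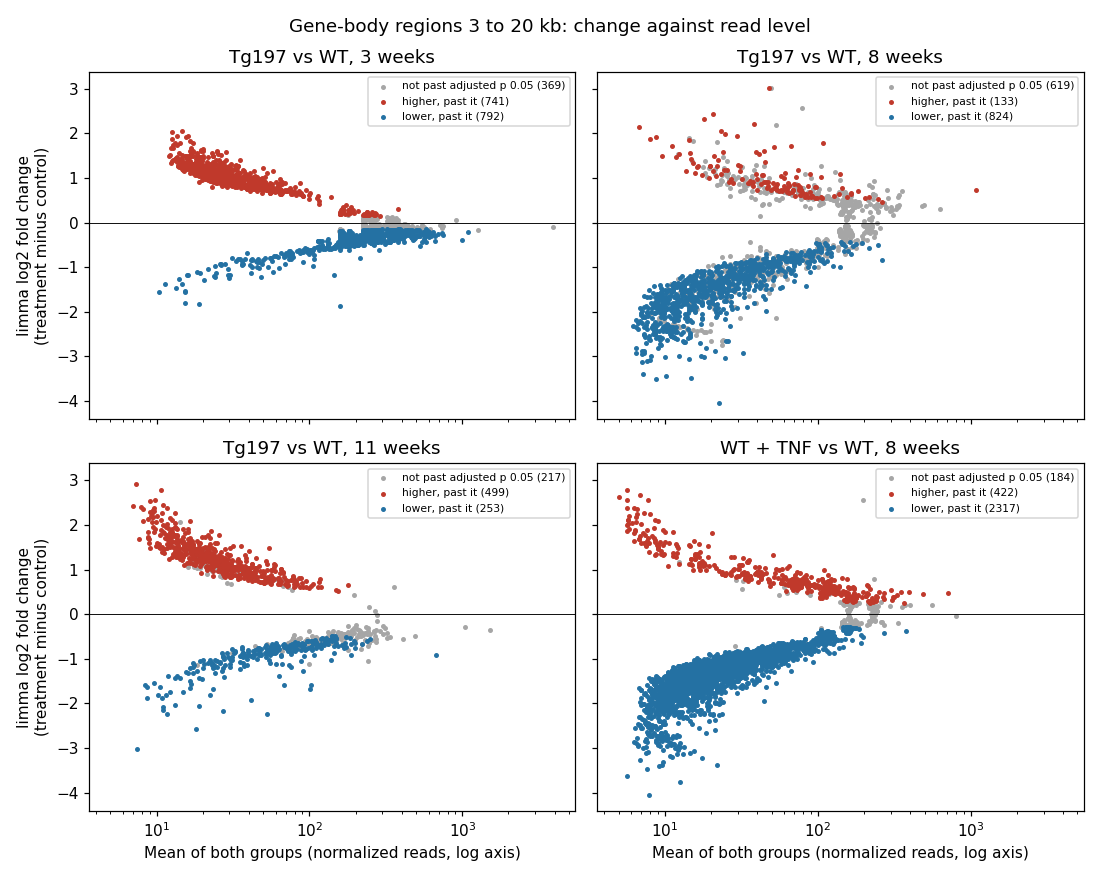
Each point is a gene-body region, with its mean normalized reads over both groups on a log axis and its limma log2 fold change, coloured by the limma adjusted p of 0.05. At low levels most regions past the test are gains at 3 and 11 weeks and losses at 8 weeks and after TNF. With 160 reads and above, 47 are higher and 626 lower at 3 weeks, and 1 and 15 at 11 weeks. There 8 are higher and 8 lower at 8 weeks, and 56 and 15 after TNF.

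The read level of a region, its mean over both groups, went with the direction of change. At 3 weeks, gained regions had a median of 31.1 normalized reads and lost ones 237, and at 11 weeks 23.2 and 91.1. At 8 weeks gained regions had a median of 75.8 and lost ones 23.7, and after TNF 84.2 and 19.6. Weakly captured gene-body regions were thus mostly gained in Tg197 at 3 and 11 weeks, and mostly lost at 8 weeks and after TNF.

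By class of level, 92.4% of the 172 regions with 10 to 20 reads were listed as gained at 3 weeks, 93.6% of the 374 with 20 to 40, 79.2% of the 202 with 40 to 80, 20.6% of the 126 with 80 to 160 and 12.4% of the 1028 with 160 and above. At 11 weeks the share fell from 85.3% of the 34 under 10 reads, over 85.7%, 78.7%, 50.5% and 11.9%, to 5.10% of the 98 with 160 and above. At 8 weeks it climbed from 2.84% of the 141 under 10 reads, over 6.46%, 18.8%, 38.1% and 44.0%, to 58.4% of the 125 with 160 and above. After TNF it was 17.1% of the 356 under 10 reads, 4.66% of the 987 with 10 to 20, then 6.82%, 23.2% and 50.2%, and 66.9% of the 169 with 160 and above. The edges of these classes were chosen after the files had been seen. At 3 and 11 weeks the other autosomal regions of a class were gained about as often, with 91.2% and 82.2% of those with 10 to 20 reads and 8.77% and 4.16% of those with 160 and above. At 8 weeks and after TNF the other autosomal regions were gained more often in every class: with 80 to 160 reads, 78.6% at 8 weeks and 82.3% after TNF, where the gene-body regions stood at 44.0% and 50.2%. These shares count regions, which are not replicates, and carry no test.

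**Figure D2:**
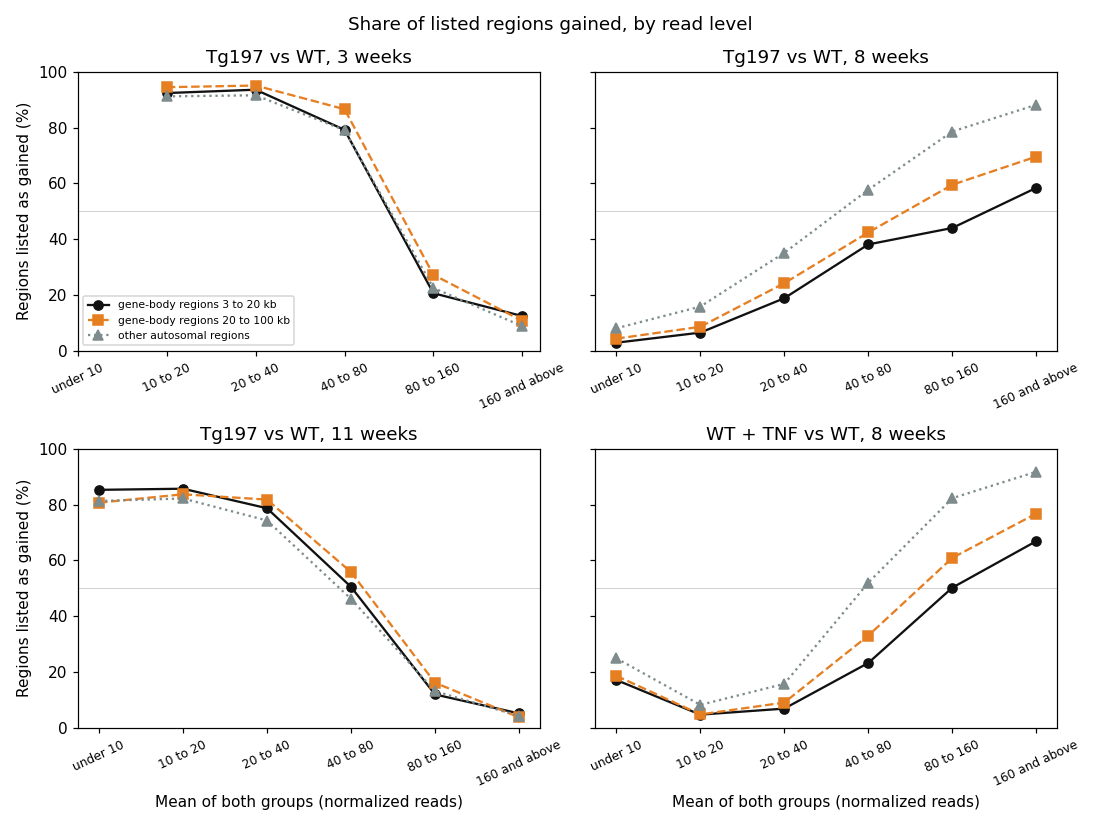
Share of listed regions gained (%), by class of mean normalized reads, for the gene-body regions 3 to 20 kb from a start, those 20 to 100 kb from one, and all autosomal regions outside the 3 to 20 kb class. The last set includes the 20 to 100 kb regions. At 8 weeks and after TNF the curve of the 3 to 20 kb regions is the lowest from 40 reads up, while the curves lie close together at 3 and 11 weeks.

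Each library showed the same pattern. Over the 546 gene-body regions with a mean under 40 reads at 3 weeks, each library's log2 ratio to the WT mean had a median of 1.01, 1.06 and 1.08 in Tg197 and of -0.18, 0.06 and 0.06 in WT. Over the 922 such regions at 8 weeks it was -1.58, -1.22 and -1.62 in Tg197, and 0.15, 0.13 and -0.36 in WT. At 11 weeks (528 regions) it was 0.98, 0.88 and 1.58 in Tg197, and -0.06, -0.06 and 0.11 in WT. After TNF (2062 regions) both distinct treated libraries were low, at -1.34 and -1.48, against 0.14, 0.09 and -0.28 in WT. No Tg197 or TNF-treated library lay among the WT libraries at these weak regions. At the regions with 80 reads and above the ratios were small at 3 weeks (-0.19, -0.20 and -0.21 in Tg197), at 8 weeks (-0.02, -0.14 and -0.06) and after TNF (0.15 and 0.12). At 11 weeks they were -0.55, -0.52 and -0.67 in Tg197, where the WT libraries themselves spread from -0.33 to 0.39. The regions were selected for a difference, so the separation of the groups is a description.

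**Figure D3:**
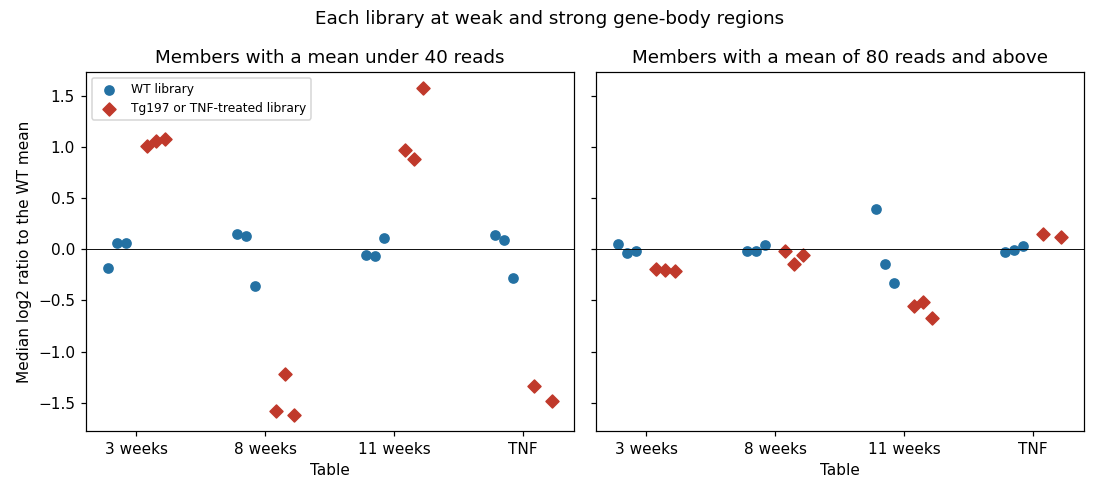
Median log2 ratio of each library to the WT mean over the gene-body regions with a mean under 40 normalized reads (left) and with 80 and above (right), 1 point per library, the identical TNF-treated libraries drawn once. The weak regions lie above WT at 3 and 11 weeks and below WT at 8 weeks and after TNF.

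Position within the gene made less difference. Between 3 and 5 kb, 5 and 10 kb, and 10 and 20 kb from the start, 45.5%, 44.4% and 41.6% of the regions were gained at 3 weeks, 20.9%, 23.3% and 27.4% at 8 weeks, 52.2%, 59.4% and 57.0% at 11 weeks, and 13.5%, 18% and 18.1% after TNF. Promoter flanks 1 to 3 kb from a start were gained in 51.1%, 30.2%, 53.8% and 19.6% of cases, and gene-body regions 20 to 100 kb from a start in 46.8%, 29.9%, 59.6% and 22.0%. Just inside the near limit, at 3 to 3.5 kb, 44.6%, 23.4%, 55.6% and 13.1% were gained, against 48.2%, 20.5%, 43.6% and 6.78% at 2.5 to 3 kb. Just inside the far limit, at 19 to 20 kb, 41.9%, 33.8%, 66.7% and 18.4% were gained, against 35.2%, 39.7%, 51.4% and 19.8% at 20 to 21 kb. These windows held few regions, and fewest at 11 weeks: 39 at 2.5 to 3 kb, 36 at 3 to 3.5 kb, 39 at 19 to 20 kb and 35 at 20 to 21 kb. The contrasts at the limits were not tested. Host gene length moved with direction in 3 of the 4 tables. Regions in genes of up to 10 kb were gained in 36.2% of cases at 3 weeks, 23.2% at 8 weeks and 12.6% after TNF, and regions in genes over 100 kb in 56.1%, 38.0% and 28.1%. The median level of these regions fell along the same order at 3 weeks, from 228 to 48.2 normalized reads, and its part in the shares was not tested. At 11 weeks the shares were 59.8% and 57.3%.

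At 3 weeks the largest gains past the test were at regions with few reads in WT. Capture rose within Sh3bp2, an adaptor protein gene mutated in cherubism (chromosome 5, 34880801 to 34881350), with 34.6, 17 and 19.8 normalized reads in the Tg197 libraries and 1.88, 10.9 and 4.54 in the WT libraries (log2 fold change 2.04, standard error 0.45, limma adjusted p = 0.00209). All Tg197 libraries lay above all WT libraries there. Gpc5, a heparan sulphate proteoglycan of the cell surface, rose as well (chromosome 14, 115497951 to 115498600), with 19.4, 20.7 and 21.8 normalized reads in the Tg197 libraries and 1.88, 5.43 and 6.82 in the WT libraries (log2 fold change 2.04, standard error 0.39, limma adjusted p = 0.00164). Glrx3 (a glutaredoxin, log2 fold change 1.94), Zfp157 (a zinc finger gene, 1.93) and Kcnc1 (a voltage-gated potassium channel, 1.93) completed the top 5. The largest loss was in Casp12, a caspase gene of the inflammatory group (chromosome 9, 5364551 to 5365750), with 127, 108 and 16.8 normalized reads in the Tg197 libraries and 256, 206 and 229 in the WT libraries (log2 fold change -1.87, standard error 0.46, limma adjusted p = 0.00266). The third Tg197 library was far below the other two, and the groups did not overlap. Other losses among the largest were in Susd5 (24.5 ± 0.752 in WT to 6.35 ± 0.639 in Tg197, SD, n = 3 each), in the scaffold protein gene Mpp3 (15.8 ± 2.29 in WT to 4.97 ± 2.56) and in the proteasome subunit gene Psma3 (23.3 ± 9.77 in WT to 7.54 ± 3.91). Setd4, Nup107 and Glo1 held the most regions, 4 each. Of the 4 in Setd4, a SET-domain methyltransferase gene, 1 rose (log2 fold change 0.98, adjusted p = 0.00274), 1 fell (-0.34, adjusted p = 0.00199) and 2 did not pass. Nup107, of the nuclear pore, had 1 region that rose (1.08), 2 that fell (-0.26 and -0.20) and 1 that did not pass. In the glyoxalase gene Glo1, 2 fell by small amounts (-0.17 and -0.21) and 2 did not pass. With the libraries centred on their medians, the regions of Nup107 and Glo1 that fell turned to values above 0, and the fall in Setd4 no longer passed.

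The gene lists held 88 of the gene-body regions at 3 weeks, of which 31 rose and 42 fell, beside 40.3% and 44.7% of all regions. All 3 regions of TNF and NF-kB signalling genes rose (median log2 fold change 1.10, beside -0.12 over all regions). They included Nfkb2, a precursor subunit of NF-kB (144 ± 3.85 in WT to 186 ± 7.34 in Tg197, log2 fold change 0.36, adjusted p = 0.0022), and Nfkbiz, an inducible nuclear regulator of NF-kB (9.42 ± 1.69 in WT to 25.4 ± 8.18, 1.31, adjusted p = 0.00249). Of 6 regions of cytokine and receptor genes, 3 rose and 3 fell. The kinase gene Tyk2, which signals below interferon and interleukin receptors and is also a rheumatoid arthritis susceptibility gene, fell (chromosome 9, 20923351 to 20924350), with 75.6, 112 and 79.1 normalized reads in the Tg197 libraries and 205, 154 and 247 in the WT libraries (log2 fold change -1.17, standard error 0.16, limma adjusted p = 0.000694). Il1rap, the co-receptor of interleukin-1, rose (1.31). Of 10 extracellular matrix regions, 5 rose and 3 fell, among them the collagen genes Col5a3 (0.88) and Col4a4 (0.60), both higher. Of 7 protease and inhibitor regions, 1 rose, in Mmp14, the membrane-bound collagenase (0.72), and 4 fell, 1 of them in Mmp11 (-0.55). Of 10 focal adhesion regions 2 rose and 7 fell, with Pdgfrb, a receptor of platelet-derived growth factor, higher (0.89) and the ligand gene Pdgfa lower (-1.05). Wnt genes had 15 regions, of which 8 rose, 1 in the secreted inhibitor Sfrp1 (1.03), and 5 fell, 1 in Nfatc2 (-0.73). TGF-beta and BMP genes had 2 higher and 2 lower of 5, with the BMP antagonist Chrd at 1.5 and Smad9 at -0.31. Of 8 regions of methylation and chromatin genes, 2 rose, 1 in the H3K9 methyltransferase Suv39h2 (1.52), and 4 fell, 1 in the de novo DNA methyltransferase Dnmt3a (-0.37). Cell cycle genes had 1 higher and 3 lower of 5, with the mitotic kinase Cdk1 at -0.43 and Ccnd1 at -0.34. All 6 regions of imprinted genes fell, with Nespas at -0.83 and Rtl1 at -0.45. Susceptibility genes had 5 higher and 4 lower of 10, and Runx1, a transcription factor of blood and bone, stood at 0.85. Hox and limb genes had 0 regions and the 2 muscle marker regions did not pass. Synovial fibroblast markers had 2 higher and 2 lower of 4, and Ngfr fell (-0.44), as did the macrophage receptor gene Cx3cr1 (-0.28). The cartilage proteoglycan Acan rose (1.10). A region past the end of the osteoblast factor gene Sp7 passed as higher (0.20, limma adjusted p = 0.0463), but its groups overlapped. With centred libraries the 31 gains of the lists passed again, and 6 of the 42 losses did. The losses in Dnmt3a, Cdk1, Ccnd1, Smad9, Rtl1, Ngfr and Cx3cr1 were among those that no longer passed, with centred adjusted p-values from 0.0736 in Cdk1 to 0.793 in Cx3cr1.

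At 8 weeks the largest gain was within Acp1, a low-molecular-weight tyrosine phosphatase gene (chromosome 12, 31579801 to 31580900), with 79.5, 85.1 and 82.4 normalized reads in the Tg197 libraries and 1.69, 18 and 19.9 in the WT libraries (log2 fold change 3.03, standard error 0.76, limma adjusted p = 0.0428). Its Tg197 libraries lay close together, and the first WT library was the lowest. Smad3, the mediator of TGF-beta signals (chromosome 9, 63593701 to 63594450), rose with 35.8, 9.0 and 66.2 normalized reads in the Tg197 libraries and 5.07, 3.75 and 4.42 in the WT libraries (log2 fold change 2.44, standard error 0.70, limma adjusted p = 0.0428). Hoxb3, a homeobox gene of axial patterning (chromosome 11, 96193801 to 96194800), rose with 75.5, 19.4 and 103 normalized reads in the Tg197 libraries and 9.3, 12 and 11.1 in the WT libraries (log2 fold change 2.22, standard error 0.60, limma adjusted p = 0.0428). In both of these genes the second Tg197 library was the lowest of its group, and still above every WT library. 1700003G18Rik (2.33) and Gm5114 (2.14) were the other gains of the top 5. Gm5631 had the largest loss (chromosome 19, 8195051 to 8196000), with 13.2, 0 and 0 normalized reads in the Tg197 libraries and 49.9, 45.7 and 26.5 in the WT libraries (log2 fold change -4.05, standard error 1.04, limma adjusted p = 0.0428). Mstn, the growth factor that restrains muscle mass (chromosome 1, 53122451 to 53123050), fell with 0, 4.15 and 0 normalized reads in the Tg197 libraries and 24.5, 22.5 and 9.95 in the WT libraries (log2 fold change -3.44, standard error 0.77, limma adjusted p = 0.0428). Tomm40, the channel of mitochondrial protein import (chromosome 7, 20293651 to 20294250), fell with 0, 1.38 and 0 normalized reads in the Tg197 libraries and 16.1, 18 and 7.74 in the WT libraries (log2 fold change -3.41, standard error 0.59, limma adjusted p = 0.0428). In Mstn, Tomm40, Ccdc76 (-3.50) and Epb4.1l5 (-3.48), reads in Tg197 were left in the second library only, and the first and the third were listed at 0.

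The 4 regions of 6820431F20Rik at 8 weeks were all listed as gained, and none passed the limma test (log2 fold changes 0.61 to 1.53). A single library held the high values: at the region from 20005401 to 20006000 of chromosome 8 there were 82.2, 15.2 and 13.2 normalized reads in the Tg197 libraries and 16.1, 14.2 and 19.9 in the WT libraries. The same interval was listed as lost at 11 weeks, with 18.4, 21.8 and 14.7 normalized reads in the Tg197 libraries and 88.4, 27 and 15.6 in the WT libraries (log2 fold change -0.86, adjusted p = 0.153). There the first WT library held the high value. In Flcn, the gene of the tumour suppressor folliculin, 3 regions fell together, by log2 fold changes of -0.85, -1.15 and -2.73. In Abhd2, a hydrolase gene, 2 of 3 fell (-1.62 and -1.5) and the third stood at -1.25, adjusted p = 0.0748.

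At 8 weeks the lists held 71 regions, of which 12 rose and 33 fell, beside 17.4% and 36.6% of all regions (8.44% and 52.3% of the gene-body regions). TNF and NF-kB genes had 2 regions higher, 2 lower and 5 that did not pass (median log2 fold change -1.30, beside -0.22 over all regions). Map3k7, the kinase TAK1 that relays TNF receptor signals, rose (chromosome 4, 32070051 to 32071000), with 74.2, 60.2 and 44.1 normalized reads in the Tg197 libraries and 26.2, 23.2 and 33.2 in the WT libraries (log2 fold change 1.07, standard error 0.29, limma adjusted p = 0.0428). Rela, the p65 subunit of NF-kB, fell (chromosome 19, 5642451 to 5643050), with 7.95, 11.1 and 4.41 normalized reads in the Tg197 libraries and 28.8, 35.2 and 13.3 in the WT libraries (log2 fold change -1.57, standard error 0.52, limma adjusted p = 0.0435). Of 3 cytokine and receptor regions, 0 passed. Of 8 extracellular matrix regions 4 fell and none rose, with the collagen genes Col7a1 (-2.92) and Col11a2 (-2.82) lowest by p. Proteases and inhibitors had 1 higher and 2 lower of 4, the latter in Adamts10 (-1.51) and in the urokinase receptor Plaur (-1.88). Focal adhesion genes had 2 higher and 3 lower of 9, with the survival kinase Akt1 higher (0.97) and Pik3r5 lower (-1.53). Wnt genes had 1 higher and 4 lower of 7, with Wnt9a, a ligand of joint formation, at -1.61 and the co-repressor Tle3 at -0.98. Skil, a repressor of Smad signalling, fell (-1.24), beside the gain in Smad3. Hox and limb genes had 2 higher and 1 lower of 5, with Hoxb3 among the gains. Methylation and chromatin genes had 4 lower and none higher of 5, with the H3K9 methyltransferase Ehmt2 at -1.79 and Smarcd3 at -1.67. All 6 cell cycle regions fell, with Cdc25c, the phosphatase that activates Cdk1, at -1.34 and Ccnd3 at -1.02. The imprinted RNA gene Meg3 had 1 region higher and 1 lower (-1.01). Susceptibility genes had 1 higher and 3 lower of 7, with the kinase gene Tec at -2.07 and Syngr1 at -1.26. Of 3 skeletal muscle marker regions 1 rose and 2 fell, in Ryr1 (-1.92) and Myh1 (-1.52). The adjusted p-values of the passing regions given for 8 weeks lay between 0.0428 and 0.0490, close under the threshold. With centred libraries the 12 gains passed again and 15 of the 33 losses did, 3 of them among the 6 cell cycle regions. Tle3, Skil, Ccnd3, Meg3, Syngr1 and Myh1 no longer passed (centred adjusted p from 0.0569 in Skil to 0.105 in Ccnd3), nor did 2 of the 3 regions of Flcn.

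At 11 weeks the 5 largest gains were in Arhgef18, Wasf2, Wbscr25, Ptprt and Cyth4. Arhgef18, a guanine nucleotide exchange factor gene (chromosome 8, 3397001 to 3397500), rose with 9.57, 11.4 and 18.1 normalized reads in the Tg197 libraries and 0, 0 and 4.87 in the WT libraries (log2 fold change 2.91, standard error 0.84, limma adjusted p = 0.0219). Wasf2, the WAVE2 subunit that drives actin branching (chromosome 4, 132691051 to 132691600), rose with 9.57, 18.3 and 29.3 normalized reads in the Tg197 libraries and 5.44, 0 and 1.95 in the WT libraries (log2 fold change 2.78, standard error 0.76, limma adjusted p = 0.0219). Wbscr25 (2.56), the receptor phosphatase gene Ptprt (2.54) and the Arf activator gene Cyth4 (2.41) followed. These gains rested on WT libraries with few reads or none. Ninj2, an adhesion molecule gene (chromosome 6, 120046601 to 120047100), had the largest loss, with 0, 0 and 4.31 normalized reads in the Tg197 libraries and 16.3, 12.1 and 11.7 in the WT libraries (log2 fold change -3.03, standard error 0.80, limma adjusted p = 0.0219). Gramd1b, a sterol transfer protein gene (chromosome 9, 40248151 to 40249150), fell with 8.78, 11.4 and 7.76 normalized reads in the Tg197 libraries and 40.8, 41.9 and 52.6 in the WT libraries (log2 fold change -2.16, standard error 0.30, limma adjusted p = 0.0219). Tmem218 (-2.58), the forkhead gene Foxo6 (-2.24) and the homeobox gene Dmbx1 (-2.23) were the remaining losses of the top 5. Dmbx1 spread widely in Tg197, with 21.5, 3.44 and 50 normalized reads in the Tg197 libraries and 87, 73.5 and 78.9 in the WT libraries.

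Sfi1, a gene of the centrosome, held 5 regions at 11 weeks, of which 4 fell (log2 fold changes -0.88 to -1.10) and 1 stood at -0.77, adjusted p = 0.0734. At 4 of them the first WT library was the highest, as in 37.5, 42.4 and 25.9 normalized reads in the Tg197 libraries and 102, 58.6 and 46.8 in the WT libraries at the region nearest the start. Of the 4 regions of 6820431F20Rik, 2 fell (-1.42 and -1.28), and of the 3 of Speer7-ps1, a pseudogene of a multigene family, 2 fell (-2.07 and -2.06). The same WT library was the highest at each of these. Reads of near-identical copies may have been shared between them, so these values are uncertain.

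At 11 weeks the lists held 58 regions, of which 25 rose and 19 fell, beside 49.7% and 28.2% of all regions. Of TNF and NF-kB genes, 0 regions were listed. Both cytokine and receptor regions passed: Tyk2 fell at the very interval listed at 3 weeks, with 31.1, 65.3 and 69.8 normalized reads in the Tg197 libraries and 133, 121 and 128 in the WT libraries (log2 fold change -1.27, standard error 0.31, limma adjusted p = 0.0219), and Il6st, the gp130 receptor shared by the IL-6 family, rose (chromosome 13, 113272901 to 113273800), with 25.5, 20.6 and 27.6 normalized reads in the Tg197 libraries and 10.9, 3.72 and 7.8 in the WT libraries (log2 fold change 1.68, standard error 0.42, limma adjusted p = 0.0219). Of 6 extracellular matrix regions 2 rose and 3 fell, with Col8a2 at -1.15 and Col12a1 at -0.92. Proteases and inhibitors had 3 higher and 1 lower of 5, with Ctsk, the collagen-degrading cathepsin of osteoclasts, at 1.24 and Mmp25 at 1.06. Focal adhesion genes had 4 higher of 5 and none lower, with Prkca at 1.18 and the integrin gene Itga9 at 1.20. Wnt genes had 2 higher, in the receptor Lgr6 (0.93) and in Sfrp1 (1.13), and 3 lower of 9. TGF-beta and BMP genes had 5 higher and 3 lower of 12, with the joint-forming ligand Gdf6 at -1.10 and the TGF-beta binding protein Ltbp4 at -0.91. The limb factor genes Alx4 (1.07) and Lmx1b (-1.20) moved in opposite directions. Hdac5 (-0.82) was the 1 of 2 chromatin regions that passed. Cell cycle genes had 1 higher and 2 lower of 3, the losses in E2f3 (-1.18) and Cdk1 (-1.60). Imprinted genes had 3 higher and none lower of 4, with Slc38a4 at 1.02 and Gnas at 0.89. Susceptibility genes had 3 higher and 4 lower of 8. Sfrp1 and Ctsk were also the only fibroblast and macrophage or osteoclast marker regions of the table. Ryr1 (0.93) and Myh1 (-0.54), of the muscle markers, moved in opposite directions. With centred libraries the 19 losses passed again and 4 of the 25 gains did. The gains in Mmp25, Prkca, Itga9, Lgr6, Sfrp1, Alx4, Slc38a4, Gnas and Ryr1 no longer passed (centred adjusted p from 0.0525 in Prkca to 0.152 in Ryr1).

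After TNF the 5 largest gains were at regions assigned to She, BC026782, Zbtb24, Ube2d1 and Galnt12, all with few reads in each WT library. The Zbtb24 region lay past the end of its transcript. At She (chromosome 3, 89642401 to 89642900) there were 9.95 and 11.2 normalized reads in the TNF-treated libraries and 0.86, 1.52 and 0 in the WT libraries (log2 fold change 2.79, standard error 0.62, limma adjusted p = 0.0109). At Ube2d1, a ubiquitin-conjugating enzyme gene (chromosome 10, 70738551 to 70739100), there were 11.9 and 8.68 normalized reads in the TNF-treated libraries and 1.71, 1.52 and 0 in the WT libraries (log2 fold change 2.56, standard error 0.64, limma adjusted p = 0.0109). The log2 fold changes of BC026782, of the zinc finger gene Zbtb24 and of the glycosyltransferase gene Galnt12 were 2.66, 2.57 and 2.39. The 5 largest losses were in Dqx1, Ppfia4, Ubr3, Helz and Ccdc76. Dqx1, a helicase-family gene (chromosome 6, 83015751 to 83016600), was listed at 0 in both distinct treated libraries, against 15.4, 18.3 and 13.5 normalized reads in the WT libraries. The ubiquitin ligase gene Ubr3 (chromosome 2, 69741851 to 69742350) was likewise listed at 0, against 12.8, 11.4 and 9.83 in WT. The liprin gene Ppfia4 (-3.76), the helicase gene Helz (-3.46) and Ccdc76 (-3.41) kept at most 1.99 reads in a treated library. Ccdc76 was listed over the identical interval in the 8-week table, which shares the WT libraries.

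Dlgap5, Ptk7 and Fanca held the most regions after TNF. In Dlgap5, a gene of the mitotic spindle, all 5 regions fell, with log2 fold changes from -1.94 to -0.76. In Ptk7, a receptor-like Wnt pathway gene, 4 of 5 fell (-1.72 to -1.03), and the strongest region, with 151 and 161 normalized reads in the TNF-treated libraries and 190.1, 192 and 168 in the WT libraries, stood at -0.23, adjusted p = 0.0989. In the DNA repair gene Fanca, 3 of 4 fell (-1.08, -1.03 and -0.57), while the strongest stood at 0.02, adjusted p = 0.873. With the libraries centred on their medians, 0 of these 12 losses passed (limma), the region of Dlgap5 nearest to the threshold having an adjusted p of 0.0525. The centred log2 fold change turned positive for 2 of them in Dlgap5 and 1 in Fanca, and the strongest regions of Ptk7 and Fanca passed as higher (0.71 and 0.96). By the authors' deposited directions, 82.6% of the gene-body regions after TNF were lost, beside 66.2% of all regions. Among the 368 genes with more than 1 region, all regions were lost in 276, all gained in 9, and 83 were mixed. At 3 weeks 71 of 190 such genes were lost throughout, 27 gained and 92 mixed, at 8 weeks 95, 18 and 36 of 149, and at 11 weeks 17, 21 and 23 of 61. The share of gene-body regions listed as lost was 56.8% at 3 weeks, 75.1% at 8 weeks and 42.9% at 11 weeks. Of all regions it was 56.6%, 51.5% and 45.8%.

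After TNF the lists held 128 regions, of which 17 rose and 104 fell, beside 29.8% and 64.1% of all regions and 14.4% and 79.3% of the gene-body regions. The median log2 fold change over all regions of the table was -1.08. Of 12 TNF and NF-kB regions, 10 fell and none rose (median -1.45). Relb, of the non-canonical NF-kB pathway (chromosome 7, 20196351 to 20196850), fell with 2.99 and 3.72 normalized reads in the TNF-treated libraries and 25.7, 21.3 and 9.83 in the WT libraries (log2 fold change -2.10, standard error 0.51, limma adjusted p = 0.0109). Ikbkb, the kinase that releases NF-kB (chromosome 8, 23800601 to 23801200), fell with 29.9 and 17.4 normalized reads in the TNF-treated libraries and 67.6, 51.8 and 44.2 in the WT libraries (log2 fold change -1.20, standard error 0.29, limma adjusted p = 0.0109). All 5 cytokine and receptor regions fell, with the decoy receptor gene Il1r2 at -1.16 and Il6ra at -1.18. Extracellular matrix genes had 15 lower and 1 higher of 17, with the hyaluronan synthase Has1 at -1.27 and Col7a1 at -2.19. Proteases had 3 lower and 1 higher of 4, with Ctsk at -1.69 and Mmp24 at -1.53. Focal adhesion genes had 16 lower and 3 higher of 20, with the integrin gene Itga3 at -0.78 and Pik3r1, a regulatory subunit of PI3-kinase, at 0.96. All 9 Wnt regions fell, with the transcription factor gene Tcf7l2 at -1.64 and Sfrp1 at -0.92. TGF-beta and BMP genes had 8 lower and 5 higher of 13, with Ltbp4 at -2.34 and Tgfb3 at -1.08. Of the limb genes, the Hedgehog pathway factor Gli3 fell (-1.93). Chromatin genes had 11 lower and 1 higher of 15, with Arid1a at -2.56 and the acetyltransferase Kat2a at -0.96. All 13 cell cycle regions fell, with Cdk1 at -1.47 and E2f2 at -1.41. Imprinted genes had 5 lower and 2 higher of 7, with Slc22a18 at -3.26 and Ddc at -1.28. Susceptibility genes had 8 lower and 2 higher of 10, with Tec at -1.41. Pecam1, of the endothelial markers, fell (-1.09), as did both regions of Col2a1, the cartilage collagen (-1.85 at the region with the smaller p). The muscle marker regions, in Ttn (0.48) and Myh4 (0.77), both rose. With centred libraries the 17 gains passed again and 6 of the 104 losses did, so 0 of the 13 cell cycle, 0 of the 9 Wnt and 1 of the 10 TNF and NF-kB losses passed in limma. Relb (centred log2 fold change -1.16) and Arid1a (-1.62) were among the losses that passed. Ikbkb (-0.26), Il1r2 (-0.22), Cdk1 (-0.53) and Pecam1 (-0.15) were among those that did not, and Itga3 and Sfrp1 turned to positive values.

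**Figure D4:**
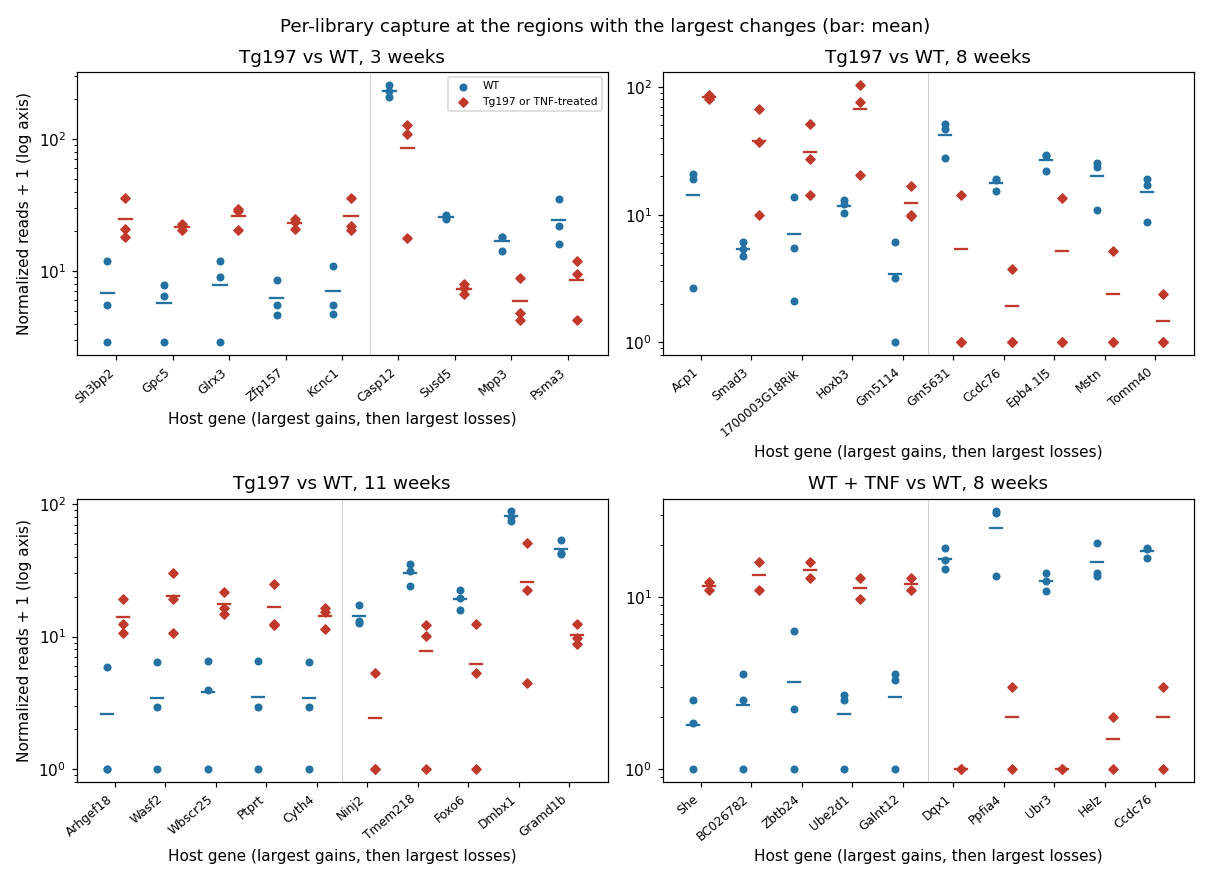
Normalized reads + 1 on a log axis in each library at regions among the 5 largest gains and the 5 largest losses of each comparison (1 loss at 3 weeks is not shown), with the group mean as a bar and the identical TNF-treated libraries drawn once. The groups do not overlap at any of these regions, and a value of 1 on the axis is a library listed at 0.

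Few intervals were listed at several ages. Between 3 and 8 weeks, 72 pairs of gene-body regions overlapped by at least 1 bp (3.68% of the 3-week and 4.57% of the 8-week regions), and 38 were lost at both ages, 3 gained at both, 21 gained at 3 and lost at 8 weeks, and 10 the reverse. Of all autosomal regions, 4.17% and 4.8% overlapped, in 532 pairs. Of these, 136 were lost at both ages, 50 gained at both, 115 gained and then lost, and 231 the reverse. Between 3 and 11 weeks there were 35 (1.84% and 3.61%), of which 28 were lost at both ages, 5 gained at both and 2 lost and then gained. Over all autosomal regions there were 306 (2.37% and 4.25%). There 197 were lost at both ages, 64 gained at both, 17 gained and then lost, and 28 the reverse. Between 8 and 11 weeks there were 29 pairs of gene-body regions (1.84% and 2.99%), with 8 gained at both, 6 lost at both, 7 gained and then lost, and 8 lost and then gained. Over all autosomal regions there were 293 (2.65% and 4.07%). There 54 were gained at both, 80 lost at both, 99 gained and then lost, and 60 the reverse. Between the 3-week and TNF tables there were 102 pairs (5.31% and 3.46%), 38 of them lost in both, 45 gained at 3 weeks and lost after TNF and 19 the reverse. All autosomal regions gave 635 (5.04% and 3.84%), with 145, 201 and 239 in that order and 50 gained in both. Between 11 weeks and TNF there were 58 (5.99% and 1.98%): 16 lost in both, 26 gained and then lost, 10 the reverse, 6 gained in both. All autosomal regions gave 319 (4.48% and 1.96%), with 56, 126, 101 and 36 in that order. Genes with a region in all 4 tables numbered 15. Every region was listed as lost in the kinase genes Cdk1 and Mtor, the pyrimidine synthesis gene Cad, 1500035H01Rik, Cacna1g and Pafah2. In the others the direction was mixed. A gene's regions need not be the same interval: those of Cdk1 began at 68803201 at 3 weeks, 68810501 at 11 weeks and 68812001 after TNF. The 8-week and TNF comparisons share their WT libraries, so their overlap is not given as a result.

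No locus joined regions of all 4 tables, and 27 joined regions of 3. A locus was a chain in which each region overlapped at least 1 other, so its regions need not all overlap each other. At Bat1a (chromosome 17), the 3-week region (35390051 to 35390700) did not reach the 11-week one (35390751 to 35391350). Of the 27 loci, 19 were listed at 3 weeks, 8 weeks and after TNF, and 5 at 8 weeks, 11 weeks and after TNF. Another 2 were listed at 3 weeks, 11 weeks and after TNF, and 1, Bat1a, at the 3 ages. The 19 and the 5 each include the 8-week and TNF comparisons, which share their WT libraries, so a change in both is not seen in 2 separate comparisons. All 3 regions passed and fell at Plcb3, a phospholipase C gene (-0.33 at 3 weeks, -0.96 at 8 weeks, -1.69 after TNF), and at Atxn7l2 (-0.47, -1.66 and -1.42). All 3 passed and rose at Gpd2, the mitochondrial glycerol phosphate dehydrogenase (0.99 at 8 weeks, 0.81 at 11 weeks, 0.71 after TNF). Gpd2 had 33.1, 36.7 and 39.7 normalized reads in the Tg197 libraries and 20.3, 15 and 18.8 in the WT libraries at 8 weeks. With centred libraries 0 of the 3 regions of Plcb3 passed (limma adjusted p from 0.0783 at 8 weeks to 0.501 at 3 weeks), Atxn7l2 passed at 8 weeks only, and Gpd2 passed at 8 weeks and after TNF but not at 11 weeks (adjusted p = 0.17). Myo1e, an unconventional myosin gene (chromosome 9, 70058701 to 70059200 at 3 weeks), rose at 3 weeks with 31.3, 58.5 and 44.5 normalized reads in the Tg197 libraries and 24.4, 20.8 and 20.4 in the WT libraries (log2 fold change 0.96, standard error 0.25, limma adjusted p = 0.00304). At 8 weeks it fell, with 7.95, 15.2 and 11.8 normalized reads in the Tg197 libraries and 33, 45.7 and 18.8 in the WT libraries (log2 fold change -1.36, standard error 0.44, limma adjusted p = 0.0432). After TNF it stood at -1.45, adjusted p = 0.0109. The groups did not overlap in any of the 3 tables, with Tg197 above WT at 3 weeks and below it at 8 weeks. Tmco3 likewise rose at 3 weeks (1.06) and fell at 8 weeks (-1.16) and after TNF (-0.69, which turns to 0.25 with centred libraries), and Trmu, a tRNA modification gene, fell at 8 weeks (-1.58) and after TNF (-1.07) and rose at 11 weeks (1.11). With centred libraries Myo1e and Tmco3 passed at 3 weeks only, and Trmu at 8 weeks only. In Leo1, of the Paf1 transcription complex, capture fell at 3 weeks (-0.50) and rose after TNF (0.42), with -0.75 at 8 weeks, where the test was not passed. 4930550C14Rik rose at 3 weeks (1.24) and fell after TNF (-1.68), with -2.28, adjusted p = 0.0518 at 8 weeks. Dcaf5 and Lman2 fell at 3 weeks (-0.23 and -0.19, both turning to positive values with centred libraries) and after TNF (-1.04 and -1.0). At Pus7l, Synj1, Gpn1 and Sult5a1, 0 of the 3 regions passed. At the other 13 loci, Bat1a, Ysk4, Epb4.1l1, Erlin2, ORF61, Nup37, Apol6, Ccnd3, Ttn, Zfp518b, Fank1, Mrgprx2 and Polg, 1 or 2 regions passed.

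**Figure D5:**
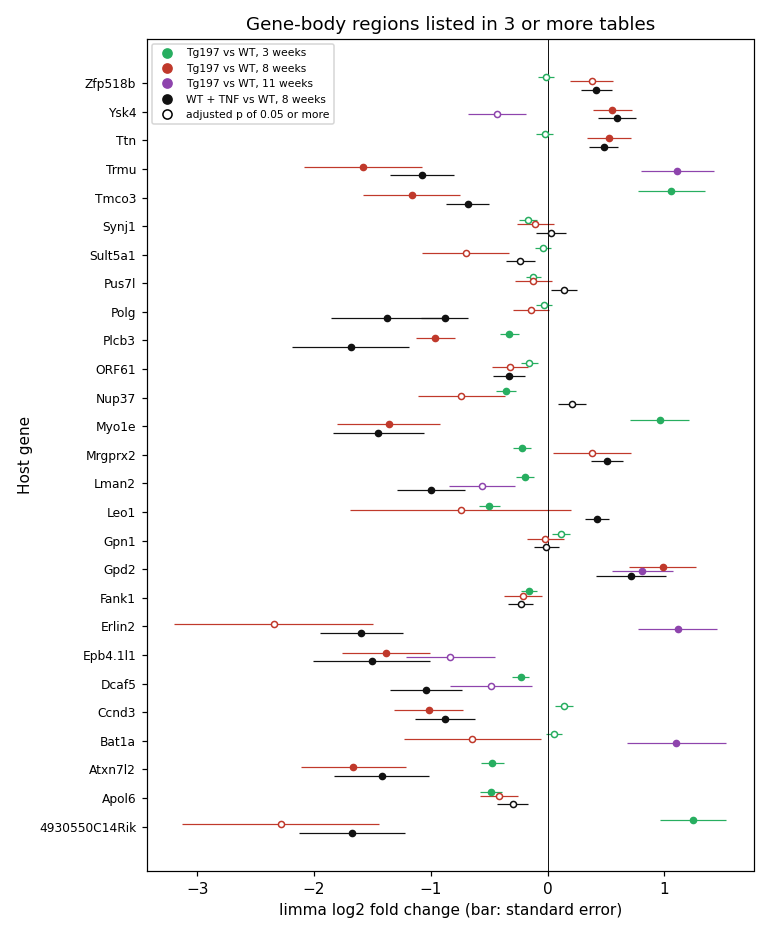
limma log2 fold change, with its standard error as a bar, of the gene-body regions at the 27 loci listed in 3 or more tables, filled where the adjusted p is under 0.05. Plcb3 and Atxn7l2 are negative and Gpd2 positive in each of their comparisons, while Myo1e and Tmco3 are positive at 3 weeks and negative at 8 weeks and after TNF. The comparisons at 8 weeks and after TNF share their WT libraries.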

How the data were processed

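Methylated DNA was captured with a methyl-CpG-binding protein kit after sonication, with low and high salt fractions combined, per the labels' protocols. The submitters' processing notes list mm9 and, with no role given, Cuffdiff, BWA, Cufflinks, TopHat2 and TopHat, and the differential caller is not given in the sources used here. Each deposited table lists regions that the authors found different, with the nearest transcript. Per the file headers, the deposited signal is a group's mean normalized reads, and the log2 fold change and p-values are the authors'. The largest window p-value of a gene-body region in the deposited tables was 9.99e-05. Tables were normalized separately and tested within themselves.

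The treatment columns were taken to be Tg197 or TNF, and 0 columns were left out. Values were whole multiples of 1 step per library within 0.1 for 99.98% to 100% of them, which gave back read numbers, and between 57.0% and 68.4% of the read numbers up to 20 in a library were even, so reads are not independent molecules. limma 3.58.1 with a mean trend (R 4.3.3) was fitted to log2(value + 1) of all regions of a table, with Benjamini-Hochberg adjustment and a threshold of 0.05, and tested on simulated data. Alternatives were the pseudocount, a minimum mean of 10, centring, limma voom, adjustment over all windows, removal of regions with unusually small p-values, each library left out, and identical libraries counted separately. The gene-body regions, gene lists and alternatives were chosen with earlier results of these data known. Named regions were, per table, the 5 largest gains and losses past the test with at least 10 normalized reads on average in the higher group, the 3 genes with the most regions (ties by the smallest p), up to 2 genes per list by p, and loci listed in 3 or more tables. Some of these are not reported here. No sequence of a region is printed, since no mm9 genome was used here. A check of the promoters of the host genes was void, since only 78.5% to 79.4% of the regions of a table had an entry among the RefSeq promoters (GRCm38.p6), under the 80% needed.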

Additional observations from a re-analysis of the deposited data

Results flagged for a closer look

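Regions listed at different ages sometimes separated in opposite directions, with every Tg197 library above every WT library at the younger or older age and below it at the other. This held for 14 overlapping pairs of gene-body regions between 3 and 8 weeks, 2 between 3 and 11 weeks, and 8 between 8 and 11 weeks. These were 19.4%, 5.71% and 27.6% of the overlapping pairs of gene-body regions, beside 33.8%, 9.15% and 23.5% of the overlapping pairs of all autosomal regions. The difference between the ages was not tested, since the tables were normalized separately. The 2 pairs between 3 and 11 weeks lay in Daglb and Pik3r4, which were named after their values had been seen.

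The weakly captured gene-body regions of each table, with a mean under 40 reads, lay on different sides of WT at different ages in every Tg197 library. They were chosen within each table, so no set of regions was followed with age. At most 4.57% of the gene-body regions of an age overlapped those of another. The middle of the 3 library medians, as a log2 ratio to the WT mean, was 1.06 at 3 weeks, -1.58 at 8 weeks and 0.98 at 11 weeks. The other autosomal regions of each table had similar values. With 10 to 20 reads, the median log2 fold change at 3, 8 and 11 weeks was 1.28, -1.64 and 1.46 in the gene-body regions. In the other autosomal regions it was 1.29, -1.59 and 1.47. All these regions were listed for a difference, so the values are a description, and the difference between the ages was not tested either.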

How the results depend on the processing

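No paired analysis was possible because the columns carry no replicate numbers. Adjusted over the windows that the authors' p and q-values imply, 1 gene-body region passed at 3 weeks (0 higher, 1 lower) and 0 in the other tables, against 747 higher and 810 lower at an unadjusted p under 0.05 at 3 weeks, 201 and 978 at 8 weeks, 508 and 274 at 11 weeks and 425 and 2322 after TNF. With a pseudocount of 0.1, 0 passed in either direction at 8 weeks, where limma voom found 105 higher and 758 lower, and 198 and 886 had an unadjusted p under 0.05. Centring moved the counts to 130 lower at 3 weeks, 233 higher and 397 lower at 8 weeks, 169 higher at 11 weeks and 175 lower after TNF. Without regions of unusually small p, 313 were lower at 3 weeks. With each library left out in turn, counts ran from 720 to 735 higher and 645 to 768 lower at 3 weeks, from 0 to 281 and 0 to 857 at 8 weeks, from 0 to 441 and 0 to 279 at 11 weeks, and from 204 to 412 and 1727 to 2328 after TNF. At 8 weeks both counts were 0 when the first or the third Tg197 library or the first or the second WT library was left out, with 630 to 996 regions at an unadjusted p under 0.05 in limma. At 11 weeks both were 0 when the first or the third Tg197 library or the second WT library was left out, with 589 to 683 such regions. Without Tg197 library 2 at 8 weeks, 281 were higher, and without WT library 3, 64. After TNF, 204 were higher without the identical libraries and 255 without the other treated library. The cause of these changes was not tested. Centring reversed the log2 fold change at 3 weeks of Setd4 (0.18 and 0.20), Nup107 (0.0038 and 0.059), Glo1 (0.090 and 0.054), Dcaf5 (0.032), Lman2 (0.070), Pus7l (0.14), Ttn (0.24), Zfp518b (0.25), Fank1 (0.10), Mrgprx2 (0.043), Polg (0.23) and Sult5a1 (0.22), and after TNF of Dlgap5 (0.18 and 0.056), Ptk7 (0.71), Fanca (0.37), Itga3 (0.16), Sfrp1 (0.023), ORF61 (0.61), Ccnd3 (0.062), Gpn1 (0.93), Polg (0.059) and Tmco3 (0.25). Depth limits the weakest regions, where 1 read is a large part of a value, and the total depth of a library is unknown.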
